A study of Homo sapiens with 29 samples.

Results

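The expression of 9 genes of the NRF2 antioxidant programme was followed across xenograft tumours of a paclitaxel-resistant breast cancer line and its parent. The genes were GSTP1, NQO1, HMOX1, GCLC, GCLM, TXNRD1, SRXN1, SLC7A11 and OSGIN1. They were chosen by name as NRF2 targets and glutathione genes, and each was read from the deposited count table through its Ensembl identifier. All 9 were among the 58302 genes of the table, and 8 of them were among the 13495 genes with enough counts for a test. SRXN1 had no count in any library.

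Tumours were grown from MDA-MB-231, a cell line of triple-negative breast cancer with mesenchymal features, or from a paclitaxel-resistant derivative that the submitters established from it. Cells were injected into the mammary tissue on both sides of SCID-beige mice, which lack T and B cells and have impaired natural killer cells but still have macrophages, fibroblasts and vessels of their own. For the parental line 250000 cells were injected and treatment began on day 6, and for the resistant line the injection held 1500000 cells and treatment began on day 16, so that the line cannot be told apart from the injected number or the start day. Mice received vehicle, decitabine (an inhibitor of DNA methyltransferases, 0.4 mg/kg), doxorubicin (an anthracycline, 1 mg/kg) or the combination of both drugs, for 26 days, as 12-day cycles separated by a rest of 2 days. The parental groups held 4 vehicle, 4 decitabine, 3 doxorubicin and 4 combination libraries. The resistant groups held 4 vehicle, 3 decitabine, 4 doxorubicin and 3 combination libraries. According to the study's design text, the question was whether resistance goes with methylation-related changes of expression and whether decitabine turns them back. DNA methylation itself was not analysed here. Whether the resistant line is a single clone was not given in the sources used here.

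NRF2, the product of NFE2L2, is a transcription factor that KEAP1 holds in the cytoplasm and passes to degradation. When electrophiles or oxidants modify KEAP1, NRF2 reaches the nucleus, pairs with a small MAF protein and binds antioxidant response elements, where BACH1 competes with it. Its targets supply glutathione (SLC7A11, GCLC, GCLM), conjugate and reduce foreign compounds (GSTP1, NQO1), regenerate thioredoxin and peroxiredoxins (TXNRD1, SRXN1) and break down haem (HMOX1), and many tumours use this programme to withstand oxidants and drugs.

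The core of the antioxidant response element can be written TGACNNNGC. It was searched on both strands of windows that run from 250 bases before to 50 bases after the RefSeq transcript starts (GRCh38.p14). Windows were given for 7 of the 9 genes, 8 windows in all because TXNRD1 had 2 starts, and none for HMOX1 or SLC7A11. A match was present for GSTP1, GCLM and TXNRD1, whereas 13.3% of all 35116 windows held at least 1 match, and none was present in the windows of NQO1, GCLC, SRXN1 or OSGIN1. Sequence outside the windows was not searched, so a gene without a match here may have elements elsewhere. The matches are shown because they are the stretches of these promoters that resemble the binding site of NRF2. Each is written 5′ to 3′ on the strand of the gene, with the match in capitals. The GSTP1 match lay 66 bases before the start, at chr11:67583736-67583764 with its flanks, and the GCLM match, on the other strand, 34 bases before the start at chr1:93909446-93909474. TXNRD1 had matches 99 and 8 bases before its upstream start (chr12:104215670-104215698 and, on the other strand, chr12:104215761-104215789) and 102 bases before its downstream start (other strand, chr12:104286920-104286948).
GSTP1: gccggcgccgTGACTCAGCactggggcgg
GCLM: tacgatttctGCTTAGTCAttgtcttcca
TXNRD1, 99 bases before: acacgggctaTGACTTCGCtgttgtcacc
TXNRD1, 8 bases before: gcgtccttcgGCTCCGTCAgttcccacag
TXNRD1, 102 bases before: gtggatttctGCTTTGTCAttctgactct
Distances are from the RefSeq starts. In the GENCODE 29 annotation, which gave the gene positions below, the longest GSTP1 transcript begins further upstream, so that the GSTP1 match lies inside its first exon. These matches describe letters only, and binding was not measured. DNA methylation is placed mostly on CpG, and the CpG content of the windows was counted as well. The GSTP1 window held 36 CpG, more than 87.3% of all windows, whose median was 14. Only GCLM with 41 and SRXN1 with 46 had more among these genes, while GCLC had 32, TXNRD1 27 and 12 at its starts, NQO1 14 and OSGIN1 13.

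Library totals ran from 3398261 to 5382295 counts, with a median of 4600007. Levels are given as CPM, counts relative to the scaled library total, and are compared within a gene only. Markers of MDA-MB-231 cells (VIM, CD44, EGFR, AXL and CAV1) summed to between 3966 and 5742 CPM in every library, and ESR1 and PGR, which triple-negative cells lack, had 97 and 1 counts over all 29 libraries. GATA3, a luminal marker, was counted in all groups, at means of 23.8 to 49.6 CPM. Labels did not tie libraries to mice, and tumours of 1 mouse may be among the replicates, and a p-value here reflects only how much these samples vary. In bulk tissue, fewer cells of a type and less RNA per cell cannot be told apart. Levels of myeloid, endothelial and fibroblast markers are given beside the results. They were counted as human genes in tumours grown in mice, and how mouse reads were treated was not given. Whether they stem from mouse cells or from the tumour cells cannot be told from these counts. "Called" means an adjusted p under 0.05 in edgeR's quasi-likelihood test, with Benjamini-Hochberg adjustment over all 13495 genes.

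The resistant tumours did not carry a uniform shift of these genes. Averaged over the 4 treatments, SLC7A11, HMOX1 and NQO1 were higher in resistant than in parental tumours, and GSTP1, GCLM and TXNRD1 were lower. GCLC and OSGIN1 were not called. The count was therefore 3 higher, 3 lower and 2 not called of 8 tested genes, in a comparison in which 46% of all tested genes were called, 22.6% as higher and 23.4% as lower. The median log2 difference of the 8 genes was 0.17, against 0.00 over all tested genes. Within single treatments, 3 of 8 were called under vehicle (background 20.1%), 4 under decitabine (26.8%), 3 under doxorubicin (13.9%) and 1 under the combination (21.9%), and only GSTP1 was called in every one of these 4 comparisons.

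Levels of some myeloid and endothelial markers also differed between the lines. Under vehicle, the summed level of 9 myeloid markers was 117 to 148 CPM in resistant and 73.0 to 112 CPM in parental tumours, and that of 6 endothelial markers 12.2 to 16.0 and 17.3 to 26.0 CPM, without overlap in either case. Under doxorubicin, resistant tumours had the lower sums of both, with 81.2 to 93.7 against 108 to 122 CPM for myeloid and 8.94 to 19.8 against 23.1 to 30.6 CPM for endothelial markers. Averaged over treatments, CTSS (2.27-fold) and FCER1G were called higher and CSF1R lower among 6 tested myeloid markers, and CDH5 was called higher and PECAM1 lower among 4 tested endothelial markers. LAPTM5, the largest part of the myeloid sum, was not called on average (adjusted p = 0.0504). TYROBP, LYZ, CD14, VWF and KDR had 2, 40, 70, 8 and 85 counts over all libraries. The called markers FCER1G, CSF1R and CDH5 were sparse as well, with 150, 207 and 180 counts. The tested fibroblast markers were not called on average, with log2 differences of 0.05 (COL1A1), -0.25 (COL1A2), 0.06 (COL3A1) and 0.06 (PDGFRB). The part of these markers in the line differences of the 8 genes was not tested.

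**Figure D1:**
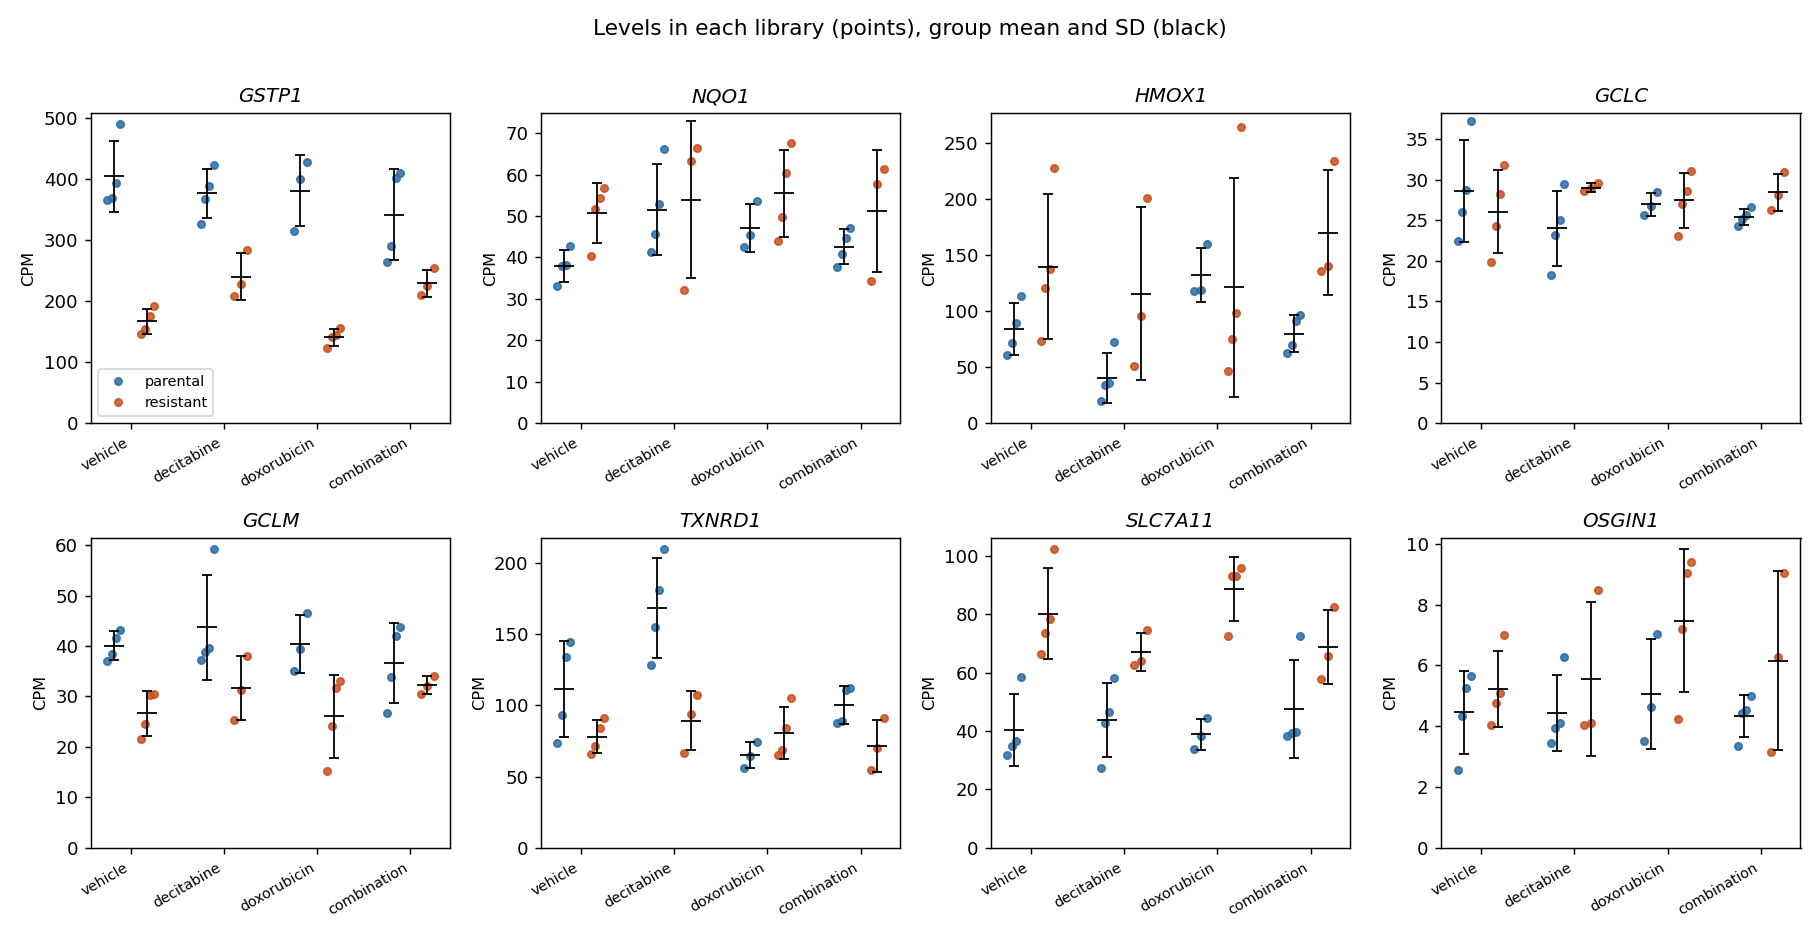
Level of each of the 8 tested genes in CPM (vertical axes, linear from 0) in the 8 groups of tumours; points are single libraries, blue for parental and orange for resistant tumours, and black marks show the group mean and SD. Resistant GSTP1 values under vehicle and doxorubicin lie below all others, SLC7A11 is mostly higher in resistant tumours, and HMOX1 scatters widely among the resistant libraries.

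GSTP1 (ENSG00000084207, chr11:67583595-67586656 on GRCh38) encodes glutathione S-transferase pi, which joins glutathione to electrophilic compounds and drugs, and its CpG-rich promoter is a known site of methylation in several cancers. Under vehicle its level was 393, 368, 489 and 365 CPM in the parental libraries and 176, 145, 154 and 191 CPM in the resistant libraries. Under doxorubicin it was 400, 315 and 427 CPM in parental and 156, 144, 122.5 and 140 CPM in resistant tumours. The ranges did not overlap in either case, as for 22.3% of all tested genes under vehicle and 27.8% under doxorubicin. The log2 difference was -1.28 ± 0.14 (SE) under vehicle, a 2.42-fold lower level (adjusted p = 2.71e-07), and -1.44 ± 0.15 under doxorubicin, 2.71-fold lower (adjusted p = 1.26e-07).

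Where decitabine had been given, the gap of GSTP1 between the lines was narrower. Decitabine-treated tumours had 327, 366, 423 and 388 CPM in the parental and 227, 283 and 208 CPM in the resistant group. Combination-treated tumours had 264, 289, 400 and 409 CPM in the parental and 253, 209 and 225 CPM in the resistant group. In these treatments too the ranges of the lines did not overlap, as for 31.1% of all tested genes under decitabine and 28.9% under the combination. The resistant level was 1.57-fold lower under decitabine (log2 -0.65 ± 0.15, adjusted p = 0.00242) and 1.49-fold lower under the combination (log2 -0.57 ± 0.15, adjusted p = 0.0091). The call under the combination was lost without the resistant combination library 2 (log2 -0.51, adjusted p = 0.06). Over the 8 group means the order fell from parental vehicle, doxorubicin, decitabine and combination to resistant decitabine, combination, vehicle and doxorubicin. The neighbours in that order overlapped in their single values, except resistant combination and resistant vehicle, which did not.

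Glutathione supply begins with SLC7A11 (ENSG00000151012, chr4:138164097-138242349), the cystine-carrying subunit of system xc-. Its level under vehicle was 36.4, 35.0, 31.6 and 58.4 CPM in parental and 66.3, 78.3, 73.5 and 102 CPM in resistant tumours. Under doxorubicin it was 44.4, 38.4 and 33.9 CPM in parental and 92.9, 93.0, 95.9 and 72.4 CPM in resistant tumours. Every resistant value exceeded every parental value in these treatments. Of all tested genes, 22.3% did not overlap under vehicle and 27.8% under doxorubicin, in either direction. SLC7A11 was 1.98-fold higher in resistant tumours under vehicle (log2 0.99 ± 0.22, adjusted p = 0.00155) and 2.27-fold higher under doxorubicin (log2 1.18 ± 0.24, adjusted p = 8.69e-04). Under decitabine the values were 42.7, 58.1, 46.4 and 27.4 CPM in parental and 74.6, 62.7 and 63.9 CPM in resistant tumours, 1.53-fold higher in the latter (log2 0.62 ± 0.23, adjusted p = 0.0469). That call held in only 1 of the 7 fits that left out a library of these groups, with adjusted p up to 0.153, and in 4 of 8 other settings. Under the combination the log2 difference of 0.53 ± 0.23 was not called (adjusted p = 0.0928), and the parental library 1 at 72.6 CPM lay among the resistant values of 65.8, 57.8 and 82.6 CPM. Without that library the difference was 0.84 (adjusted p = 0.00977). Averaged over treatments, SLC7A11 was 1.78-fold higher in resistant tumours (log2 0.83 ± 0.11, adjusted p = 8.58e-07).

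The annotated antisense gene SLC7A11-AS1 (chr4:138057464-138178177), named here because it shares 865 exonic bases with SLC7A11 on the opposite strand, was also higher in resistant tumours. It had 0 to 1.46 CPM in the parental libraries, with 0 in all 4 vehicle libraries, and 3.29 to 23.0 CPM in the resistant libraries. The ranges did not overlap, as for 3.34% of all tested genes (average over treatments, adjusted p = 6.14e-10). The library kit keeps strand, but the strand setting of the counting was not given, so whether reads were shared between both genes was not tested. The overlap covers 8.97% of the exonic bases of SLC7A11. Reads were 3′ tags, and the antisense gene spans the 3′ end of SLC7A11, so this share of bases does not give the share of reads.

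Glutamate-cysteine ligase, which makes the dipeptide precursor of glutathione, has a catalytic subunit (GCLC) and a modifier subunit (GCLM). GCLC (ENSG00000001084, chr6:53497341-53616970) was the steadiest of the 8 genes. Its values over all 29 libraries had a coefficient of variation of 14%, its 8 group means lay between 24.0 and 29.1 CPM, and it was called in no comparison. Its average line difference was 0.08 on the log2 scale, with a 95% interval from -0.08 to 0.25.

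GCLM (ENSG00000023909, chr1:93885205-93909456) was lower in resistant tumours. Under vehicle it stood at 38.5, 36.9, 43.2 and 41.5 CPM in the parental and 24.5, 30.4, 30.3 and 21.5 CPM in the resistant libraries, and all resistant values were the lower ones. The difference was 1.50-fold (log2 -0.59 ± 0.20, adjusted p = 0.0339). Under doxorubicin it was 1.55-fold (log2 -0.63 ± 0.21, adjusted p = 0.0427), again without overlap between 35.1 and 46.7 CPM in parental and 15.2 and 33.1 CPM in resistant tumours. The lines did not overlap for 22.3% of all tested genes under vehicle and 27.8% under doxorubicin. Each of these GCLM calls depended on single libraries, as 3 of 8 fits under vehicle and 3 of 7 under doxorubicin kept it when a library was left out. The differences of -0.46 under decitabine and -0.19 under the combination were not called. Averaged over treatments, GCLM was 1.38-fold lower (log2 -0.47 ± 0.10, adjusted p = 4.89e-04).

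TXNRD1 (ENSG00000198431, chr12:104215779-104350305) encodes the cytosolic thioredoxin reductase, the enzyme that returns oxidised thioredoxin to its active form. In decitabine-treated tumours it was 128, 155, 210 and 181 CPM in the parental and 107, 66.4 and 94.1 CPM in the resistant group. The lowest parental value lay above the highest resistant value, in a comparison where 31.1% of all tested genes did not overlap. The resistant level was 1.89-fold lower (log2 -0.92 ± 0.22, adjusted p = 0.00292). Under doxorubicin the values were 74.4, 64.8 and 56.0 CPM in parental and 105, 84.3, 68.9 and 65.0 CPM in resistant tumours, which overlap, and the difference of 0.31 was not called (adjusted p = 0.404). Under vehicle the difference of -0.51 was not called (adjusted p = 0.0765), but it was without the parental vehicle library 2 (adjusted p = 0.0246). The average over treatments was -0.40 ± 0.11 (adjusted p = 0.00345).

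SRXN1 (ENSG00000271303, chr20:646615-653370), the sulfiredoxin that repairs over-oxidised peroxiredoxins, is listed at 0 counts in all 29 libraries. The annotated gene AL121758.1, also at 0, covers 2292 of its exonic bases (85%) on the same strand. Reads that fall in both genes could have been assigned to neither, so the 0 is not a measure of absence and no upper limit is given.

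HMOX1 (ENSG00000100292, chr22:35380361-35394214) encodes the inducible haem oxygenase and varied most among the 8 genes, with a coefficient of variation of 57.4% over the 29 libraries. Under decitabine it stood at 34.2, 35.5, 19.9 and 72.2 CPM in parental and 201, 50.9 and 95.2 CPM in resistant tumours. Both groups were spread widely and overlapped, although the difference was called at 2.89-fold (log2 1.53 ± 0.51, adjusted p = 0.0305). It rested on single libraries: without the resistant decitabine library 1 it was 0.87 (adjusted p = 0.253), and 3 of 7 fits with a library left out kept the call. In the combination groups the parental values of 70.0, 62.1, 96.3 and 90.8 CPM lay below the resistant values of 135, 234 and 140 CPM, where 28.9% of all tested genes did not overlap. The difference of 1.09 ± 0.50 was not called (adjusted p = 0.12). Under vehicle (0.74) and doxorubicin (-0.13) it was not called either. Averaged over treatments, HMOX1 was 1.75-fold higher in resistant tumours (log2 0.81 ± 0.25, adjusted p = 0.0107).

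NQO1 (ENSG00000181019, chr16:69706996-69726951) encodes a quinone reductase that acts on many quinone compounds. It ranged from 33.2 to 66.3 CPM in the parental and from 32.2 to 67.6 CPM in the resistant libraries. Its average difference of 0.25 ± 0.10, 1.19-fold, passed the threshold narrowly (adjusted p = 0.0496) and did so in 14 of the 29 fits with a library left out. No single treatment showed a called difference of NQO1. OSGIN1 (ENSG00000140961, chr16:83948282-83966332), an oxidative-stress-induced growth inhibitor, was sparsely counted, with 706 counts over all libraries and 2.55 to 9.41 CPM. Its average difference was 0.41 ± 0.17 (adjusted p = 0.0517). It was called with DESeq2 (adjusted p = 0.0426) and in 3 other settings. For each of the 8 tested genes of this report other than GSTP1, every pair of neighbours in the order of the 8 group means overlapped in its single values.

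**Figure D2:**
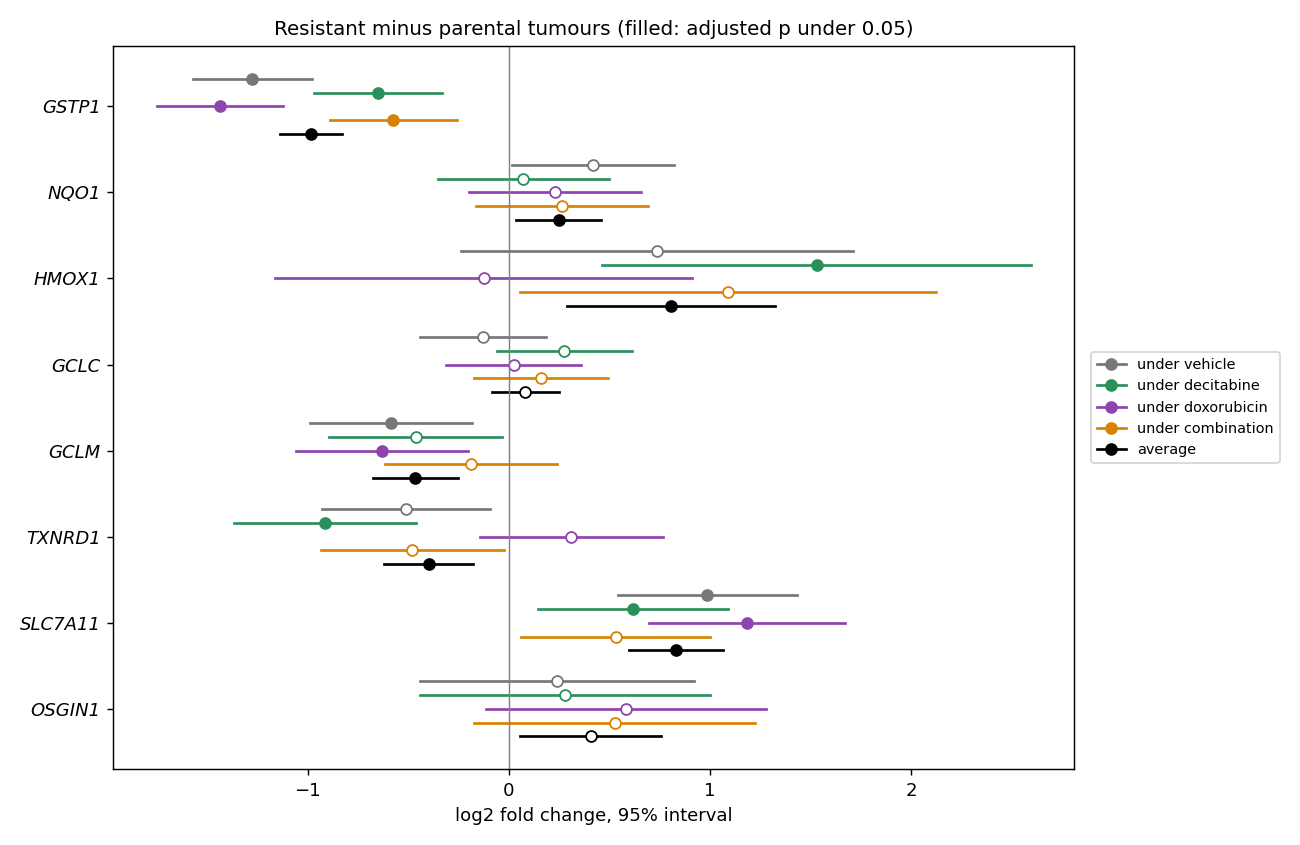
Log2 difference of resistant minus parental tumours for each of the 8 tested genes (horizontal axis), under each treatment and as the average of the 4, with 95% intervals; filled points have an adjusted p under 0.05. GSTP1 lies below 0 in every comparison, with the smallest differences in the treatments that include decitabine, and SLC7A11 lies above 0 in every comparison.

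Decitabine went with more GSTP1 in resistant tumours and not detectably so in parental tumours. Comparisons with vehicle and with doxorubicin alone were made within each line, and those of a line that use the same control libraries are not independent. Resistant decitabine values (227, 283 and 208 CPM) all lay above the resistant vehicle values (145 to 191 CPM), which 16% of all tested genes did in either direction. The log2 difference of 0.52 ± 0.15 was not called (adjusted p = 0.055, where 3.33% of all genes were called). DESeq2 gave an adjusted p of 0.0289, and 1 of the 8 genes was at an unadjusted p under 0.05 in the edgeR test. In the combination against doxorubicin alone, 253, 209 and 225 CPM stood above 156, 144, 122.5 and 140 CPM, a 1.63-fold difference that was called (log2 0.70 ± 0.15, adjusted p = 0.0185). GSTP1 was the 1 called gene of the 8 there, with 0.66% of all genes called and 12.7% without overlap. It was called in 2 of 7 fits with a library of these groups left out, with adjusted p from 0.0311 to 0.138. It was lost without resistant combination library 1 (0.138) or 3 (0.0525) and without resistant doxorubicin library 2 (0.0535), 3 (0.0877) or 4 (0.0606).

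Both decitabine comparisons were then averaged, a contrast chosen after seeing the data. Of 14 resistant libraries, those that received decitabine, alone or with doxorubicin, ranged from 208 to 283 CPM and those that did not from 122.5 to 191 CPM. The 2 ranges did not overlap, as was the case for 2.39% of all tested genes. The averaged difference was 0.61 ± 0.11, 1.53-fold (adjusted p = 5.65e-04), and GSTP1 was the 1 of 8 genes called, where 9.6% of all genes were. It was called in all 14 fits with a resistant library left out and under all 8 other settings. In parental tumours the same average was -0.13, with a 95% interval from -0.34 to 0.08 (adjusted p = 0.484). The difference between the lines in this effect was 0.74 ± 0.15 (adjusted p = 0.0169, with 3.32% of all genes called). It was 0.62 (adjusted p = 0.0635) without the parental vehicle library 3 and the resistant decitabine library 2, which stood apart from their groups in an earlier analysis of these data. With vehicle as the only control, the difference between the lines was 0.62 for decitabine (adjusted p = 0.129, 0.119% of all genes called) and 0.70 for the combination (adjusted p = 0.124, 0.0222% called), and none of the 8 genes was called in either. DESeq2 called 0 and 1 of them, and 1 was at an unadjusted p under 0.05 in each. Even after decitabine, resistant GSTP1 remained below the parental level, as the comparisons between the lines above give it.

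Some myeloid and endothelial markers moved with this result. The summed level of 9 myeloid markers was 117 to 148 CPM in resistant vehicle and 81.2 to 93.7 CPM in resistant doxorubicin tumours, against 180 to 230 CPM under decitabine and 166 to 184 CPM under the combination. Most of it came from LAPTM5, while TYROBP had 2 counts in all. The summed level of 6 endothelial markers was 12.2 to 16.0 and 8.94 to 19.8 CPM without decitabine, against 26.0 to 32.5 and 27.3 to 41.6 CPM with it, and VWF had 8 counts in all. In the averaged contrast, 2 of 6 tested myeloid markers (FCER1G and LAPTM5) and 3 of 4 tested endothelial markers (PECAM1, CDH5 and ENG) were called higher, and 0 of 4 fibroblast markers were called or at an unadjusted p under 0.05. FCER1G and CDH5 were sparsely counted, with 150 and 180 counts over all libraries. The part of these markers in the GSTP1 result was not tested.

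**Figure D3:**
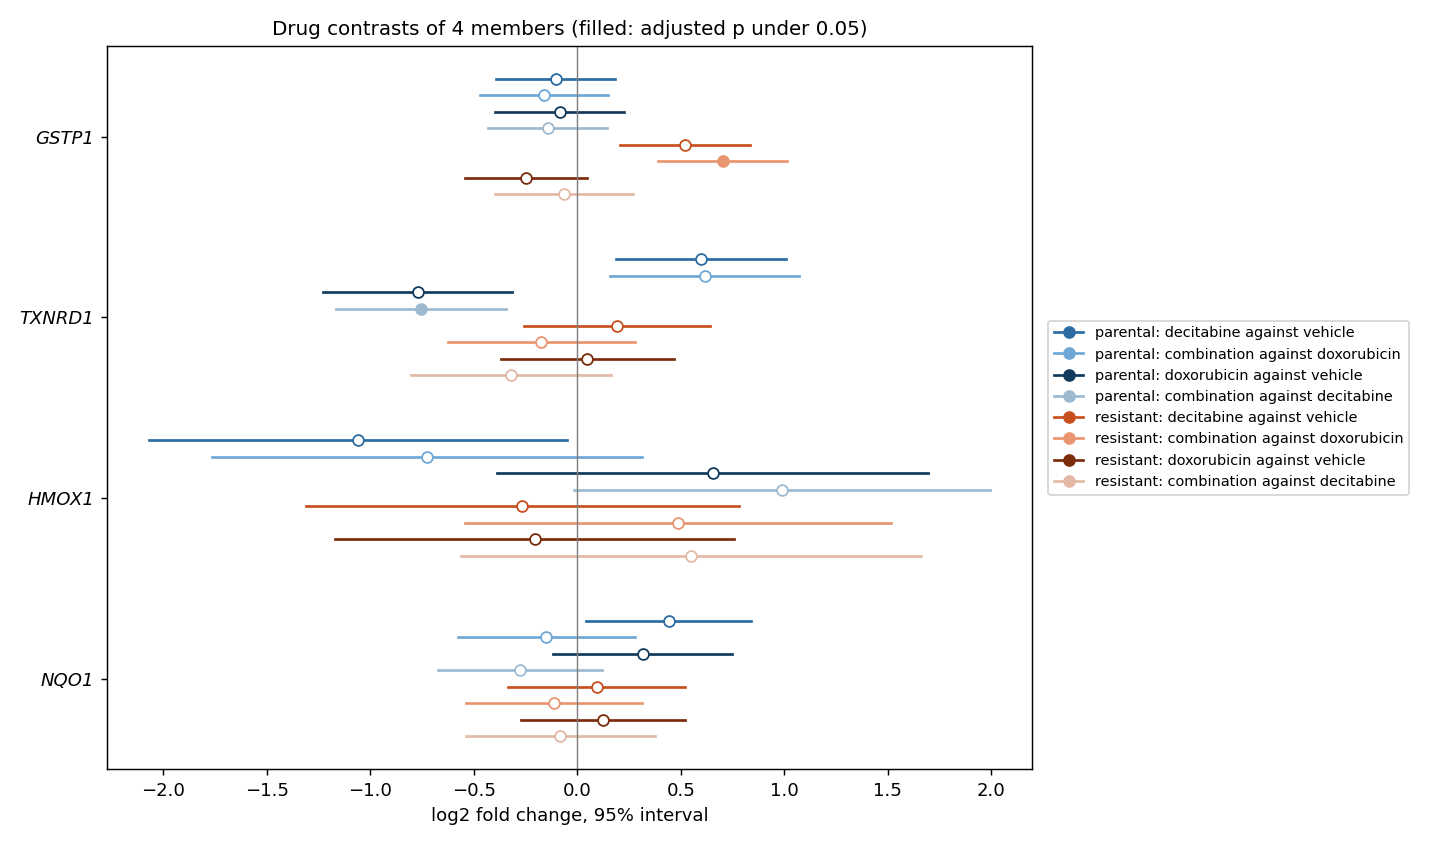
Log2 difference with 95% interval (horizontal axis) of GSTP1, TXNRD1, HMOX1 and NQO1 in the 8 comparisons between treatments within a line; filled points have an adjusted p under 0.05. The filled points are GSTP1 in the resistant combination against doxorubicin and TXNRD1 in the parental combination against decitabine.

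For TXNRD1 the called drug differences were in parental tumours. The parental libraries held 134, 73.5, 145 and 93.3 CPM under vehicle, 128, 155, 210 and 181 CPM under decitabine, 74.4, 64.8 and 56.0 CPM under doxorubicin and 111, 87.6, 89.4 and 112 CPM under the combination. Decitabine libraries were mostly the highest and doxorubicin libraries nearly all the lowest, with the combination between them. The combination was 1.69-fold below decitabine alone, without overlap (log2 -0.75 ± 0.20, adjusted p = 0.0232). TXNRD1 was the 1 called gene of the 8 in that comparison, in which 6.63% of all genes were called and 15.9% did not overlap. The call held in 4 of the 8 fits with a library left out, and was weakest without the parental decitabine library 3 (adjusted p = 0.114).

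None of the 8 genes was called for parental decitabine against vehicle (1.67% of all genes called), doxorubicin against vehicle (0.23%), the combination against vehicle (1.03%) or the combination against doxorubicin (0.304%). At an unadjusted p under 0.05 there were 3, 1, 0 and 1 of them, and DESeq2 called 0, 1, 0 and 0. TXNRD1 differed by 0.60 ± 0.20 for decitabine (adjusted p = 0.105), by -0.77 ± 0.22 for doxorubicin (0.144; 0.048 with DESeq2) and by 0.62 for the combination against doxorubicin (0.273), and by -0.15 for the combination against vehicle (0.697). Averages over the presence of the other drug, chosen after seeing the data, gave 0.61 ± 0.15 for decitabine (adjusted p = 0.0317) and -0.76 ± 0.15 for doxorubicin, 1.70-fold lower (adjusted p = 0.0033). TXNRD1 was again the 1 called gene of 8, with backgrounds of 1.62% and 5.53%. The doxorubicin call held in all 15 fits with a parental library left out, and the decitabine call in 8 of 15, with the highest adjusted p, 0.117, without the parental doxorubicin library 3.

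Some myeloid markers were higher with decitabine in parental tumours too. The summed myeloid level was 73.0 to 112 CPM under vehicle, 106 to 186 CPM under decitabine, 108 to 122 CPM under doxorubicin and 90.7 to 146 CPM under the combination. CTSS was called higher in the averaged decitabine contrast (2.17-fold, adjusted p = 0.00264, 1.62% of all genes called), as 1 of 6 tested myeloid markers. CTSS and LAPTM5 were called higher for decitabine against vehicle. The endothelial sums were 17.3 to 26.0, 23.2 to 24.8, 23.1 to 30.6 and 27.0 to 30.7 CPM in the same order. The part of these markers in the parental results of TXNRD1 and HMOX1 was not tested.

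In resistant tumours TXNRD1 showed no called drug difference. The averaged decitabine difference was 0.01, with a 95% interval from -0.31 to 0.33, and that of doxorubicin was -0.13. Tests between the lines gave -0.60 for decitabine (adjusted p = 0.0875) and 0.63 for doxorubicin (adjusted p = 0.387), so the drug effects on TXNRD1 were not shown to differ between parental and resistant tumours. None of the 8 genes was called for doxorubicin against vehicle or for the combination against decitabine in resistant tumours, and neither was any gene of the table (0%). At an unadjusted p under 0.05, 591 and 504 of all tested genes and 0 and 0 of the 8 passed in these comparisons, and DESeq2 called 1 and 0 of all genes. The resistant combination against vehicle had 0 called of 8 (1.13% of all genes), 1 at an unadjusted p under 0.05 and 0 with DESeq2. That 1 was GSTP1, at 0.46 ± 0.15 (adjusted p = 0.148), without overlap, as for 13.4% of all genes.

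HMOX1 means in parental tumours lay on the other side of vehicle from those of TXNRD1 with either drug alone, but no drug difference of HMOX1 was called. Under the combination both means lay below vehicle (79.8 against 83.8 CPM for HMOX1, 100 against 111 CPM for TXNRD1). HMOX1 stood at 61.0, 71.3, 114 and 89.4 CPM under vehicle, 34.2, 35.5, 19.9 and 72.2 CPM under decitabine, 118, 119 and 160 CPM under doxorubicin and 70.0, 62.1, 96.3 and 90.8 CPM under the combination. All doxorubicin values exceeded all vehicle and all combination values, where 10.8% and 12.6% of all tested genes did not overlap. The differences of -1.06 ± 0.49 for decitabine (adjusted p = 0.237) and 0.66 for doxorubicin (0.716) against vehicle were not called. Neither were the averages of -0.89 ± 0.35 (0.174) and 0.82 ± 0.35 (0.172). Across the 15 parental libraries the log2 levels of HMOX1 and TXNRD1 had a Pearson r of -0.72, and across the 14 resistant libraries one of 0.29. These coefficients describe libraries that share groups and treatments. NQO1, with 37.9 CPM under vehicle and 51.5 CPM under decitabine as parental means, differed by 0.44 (adjusted p = 0.214). Fibroblast markers, which summed to between 216 and 2104 CPM in single libraries, mostly through COL1A1, were not called in either averaged parental contrast (0 of 4 tested, also at an unadjusted p under 0.05).

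Averaged over both lines and over the presence of the other drug, decitabine gave 1 called gene of 8, GSTP1 at 0.24 ± 0.08 (adjusted p = 0.0495, 6.8% of all genes called). Its call held in 9 of 29 fits with a library left out. This GSTP1 average joins 2 lines whose averaged decitabine effects differed by 0.74, as given above, so it describes neither line alone. Doxorubicin gave 1, TXNRD1 at -0.45 ± 0.11 (adjusted p = 0.0299, 2.37% of all genes called), which held in 21 of 29. The effect of doxorubicin against vehicle was not called as different between the lines for any gene (0%), while 1 of the 8 was at an unadjusted p under 0.05 and DESeq2 called 0 of the 8.

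**Figure D4:**
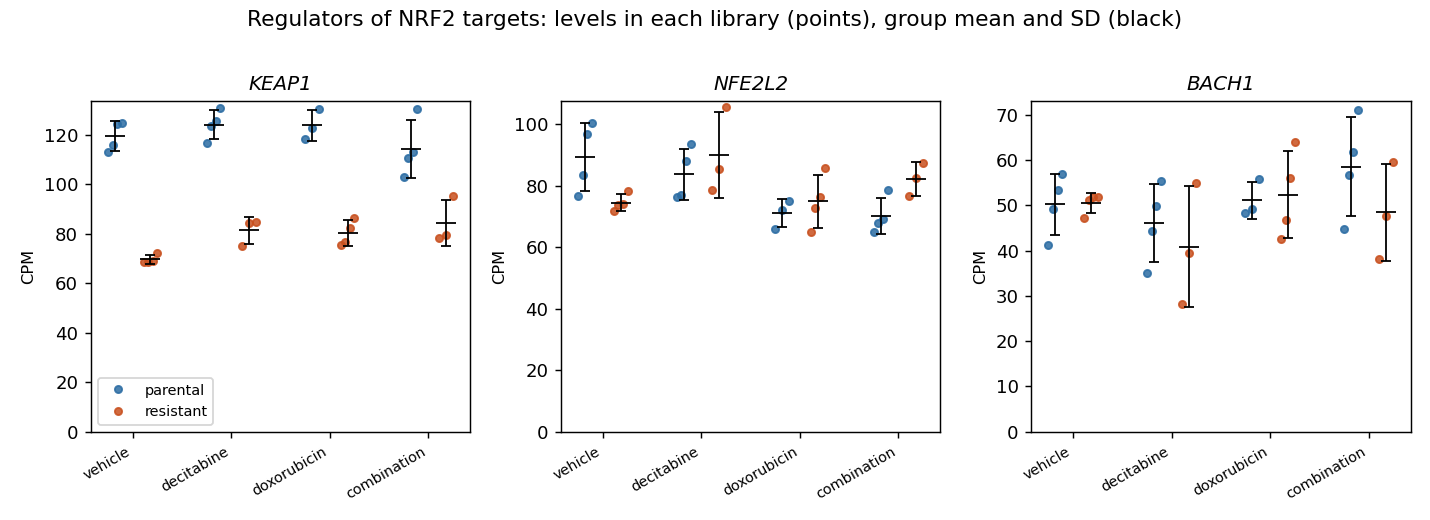
Level in CPM (vertical axes, linear from 0) of KEAP1, NFE2L2 and BACH1 in the 8 groups; points are single libraries, blue for parental and orange for resistant tumours, with the group mean and SD in black. KEAP1 is lower in every resistant library than in any parental library, and the other two overlap.

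Among the regulators, KEAP1 separated the lines and NFE2L2 did not. KEAP1 (chr19:10486120-10503741) ranged from 103 to 131 CPM, median 122.9, in the 15 parental libraries and from 68.5 to 95.3 CPM, median 77.5, in the 14 resistant libraries. These ranges did not overlap, as for 3.34% of all tested genes. KEAP1 was 1.53-fold lower on average (log2 -0.61 ± 0.05, adjusted p = 1.99e-11) and was called under vehicle (-0.78), decitabine (-0.61), doxorubicin (-0.63) and the combination (-0.44). Its resistant vehicle values of 68.7, 69.2, 72.4 and 68.5 CPM lay below those of the 3 treated resistant groups, none of which was called against vehicle (0.22, 0.20 and 0.28 on the log2 scale for decitabine, doxorubicin and the combination). Of all tested genes, 16%, 3.89% and 13.4% did not overlap in these comparisons. NFE2L2 had medians of 76.7 CPM in parental and 77.5 CPM in resistant libraries and an average difference of 0.04 (adjusted p = 0.649). BACH1 had medians of 49.7 and 49.4 CPM and a difference of -0.10 (adjusted p = 0.411). In parental tumours the averaged doxorubicin difference of NFE2L2 was -0.29 ± 0.08 (adjusted p = 0.032), and 6 of 15 fits with a library left out kept that call. Transcript levels do not show how much NRF2 protein was present or active.

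The 4 further lists place the 8 genes among related ones in the average comparison of the lines (46% of all genes called). Of 10 genes of NRF2 control, 2 were higher, 1 lower and 7 not called. SQSTM1, which binds KEAP1, was higher by 0.29 and RBX1, a subunit of the ubiquitin ligase, by 0.18. Of 23 tested other NRF2 targets (30 listed), 3 were higher, 5 lower and 15 not called. Biliverdin reductase B, BLVRB, was 1.96-fold higher (17.3 to 37.0 CPM in parental and 36.9 to 58.0 CPM in resistant libraries, adjusted p = 4.36e-11). PGD, an NADPH-producing enzyme of the pentose phosphate pathway, was 1.86-fold lower (31.1 to 44.6 and 15.2 to 24.8 CPM, adjusted p = 2.23e-10). SLC48A1, a haem transporter, was higher by 0.60, and FECH, which completes haem synthesis, was lower by 0.65 on the log2 scale.

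Of 31 tested glutathione enzymes (37 listed), 5 were higher, 10 lower and 16 not called in that comparison. The transferases GSTO2 (log2 1.57, adjusted p = 5.61e-10) and GSTM4 (-0.90, adjusted p = 9.85e-08) differed in opposite directions. GGT5, which cleaves glutathione conjugates, was higher by 0.71, and microsomal transferase MGST1 differed by -0.60. Of 18 thioredoxin and peroxide enzymes, 6 were higher, 4 lower and 8 not called. TXNRD2, the mitochondrial counterpart of TXNRD1, was higher by 0.99 (adjusted p = 1.37e-06) and SOD2, the mitochondrial superoxide dismutase, by 0.76 (adjusted p = 4.47e-05). The peroxiredoxins PRDX2 (-0.59) and PRDX1 (-0.37) were lower. Median log2 differences of the 4 lists were 0.07, 0.04, -0.10 and 0.08, in the order given, against 0.00 over all tested genes.

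**Figure D5:**
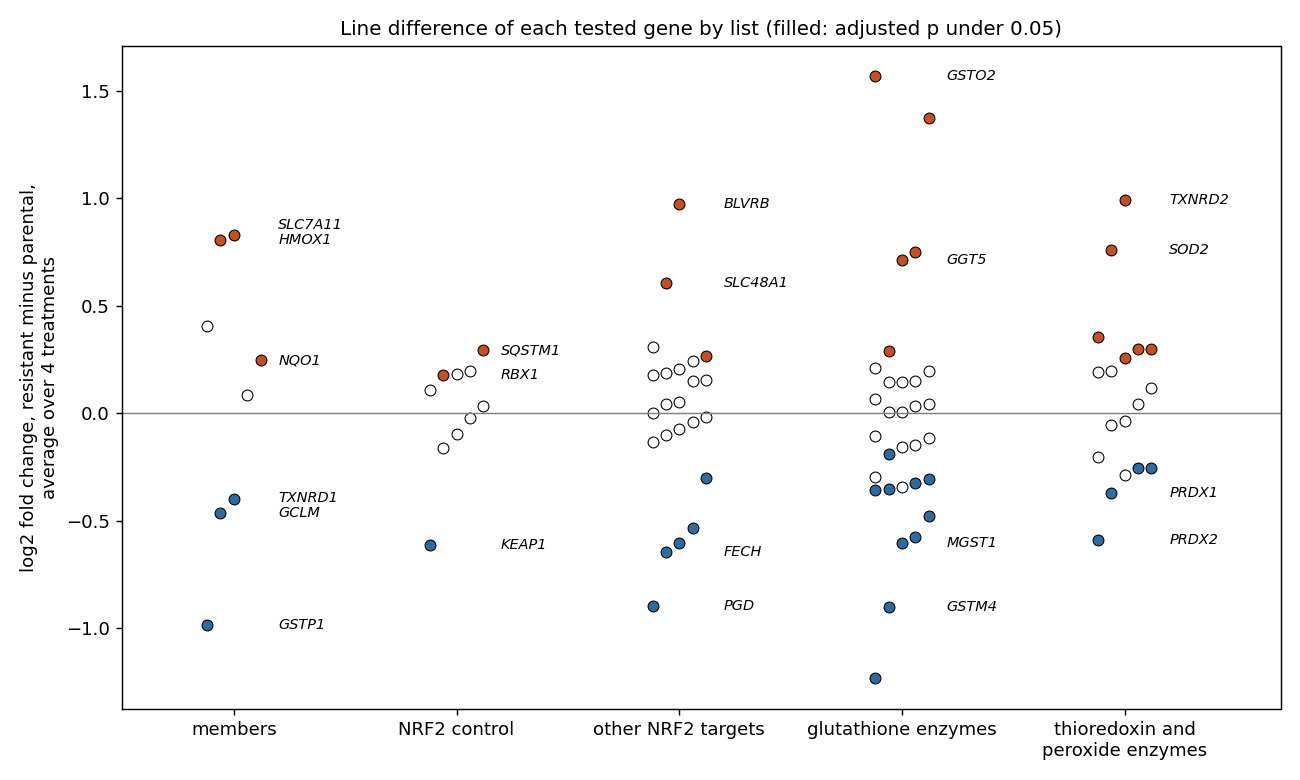
Log2 difference of resistant minus parental tumours, averaged over the 4 treatments (vertical axis), for each tested gene of the 8 and of the 4 further lists; filled points, orange for higher and blue for lower, have an adjusted p under 0.05, and names mark called genes of the 8 and the named genes of each list. Each list holds called genes on both sides of 0.

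Drug comparisons within a line called few genes of these lists. For resistant decitabine against vehicle (3.33% of all genes called), 1 glutathione enzyme was higher and PRDX6, a peroxiredoxin, differed by -0.39 (adjusted p = 0.0265). In the averaged resistant decitabine contrast, which was chosen after seeing the data and in which 9.6% of all genes were called, 5 of 31 glutathione enzymes were higher and 1 lower, 1 of 18 thioredoxin and peroxide enzymes was higher and 3 lower, 1 of 23 other targets each way and 1 of 10 control genes higher. In parental tumours, the combination against vehicle (1.03% of all genes called) raised SOD2 (1.34, adjusted p = 0.00968) and TXNIP, the thioredoxin inhibitor (1.31, adjusted p = 0.019). The parental combination against decitabine, the comparison in which TXNRD1 fell and 6.63% of all genes were called, raised TXNIP (1.17), SOD2 (0.90), FTL, the ferritin light chain (0.58), and GSTA4 (0.56), with adjusted p from 0.0143 to 0.032.

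Correlations between the 8 genes were modest in most pairs. Over the 15 parental and the 14 resistant libraries, the Pearson r of log2 levels was 0.50 and 0.40 for GSTP1 with GCLM, 0.46 and 0.39 for NQO1 with GCLM, and -0.52 and -0.55 for GSTP1 with SLC7A11. For each gene the tested genes most like it were ranked by the smaller of its r values over the parental and over the resistant libraries. They were ZNF346 (0.88), MPDU1 (0.84) and CTSZ (0.82) for GSTP1, CALM2 (0.86), EBAG9 (0.81) and BRIX1 (0.78) for TXNRD1, and LUCAT1 (0.84), CLMP (0.83) and CDCP1 (0.74) for HMOX1. For NQO1 they were SPART (0.79), SLC8B1 (0.76) and ERAP1 (0.72), and for SLC7A11 they were LATS1 (0.72), RNF182 (0.71) and NCKAP1 (0.70). GCLC was most like GPATCH3 (0.76), CACNB1 (0.72) and TGFB1I1 (0.70), GCLM most like EMILIN2 (0.67), AKIRIN1 (0.65) and ZNF788P (0.60), and OSGIN1 most like TGFBR3L (0.63), SPSB3 (0.60) and RXRB (0.60). None of the 8 was among the nearest 3 of another. The libraries share groups, depth and preparation, and these values are a description.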

How the data were processed

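Tumour RNA was sequenced as 3′ tags (Lexogen QuantSeq forward, 75 bases, poly(A) selection), per the labels' protocols. The authors deposited raw whole-number counts per gene. Cutadapt, STAR 2.7.3a, featureCounts, DESeq2 and the build GRCh38.p10 were named, per the submitters' processing notes. Not given in the sources used here were the annotation release, the strand setting and how mouse reads were treated, so reads of overlapping genes and of mouse stroma may be included or lost. Groups came from the sample titles.

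Genes were filtered with filterByExpr (minimum count 10, total 15), and counts were scaled by TMM (factors 0.896 to 1.07). All 29 libraries entered 1 quasi-likelihood fit of 8 group means in edgeR 4.0.16 (R 4.3.3), and every adjusted p is from it unless DESeq2 1.42.0, a left-out library or another setting is named. Intervals are 95%. Values after ± beside a log2 difference are SE. Replicates of a group were compared for duplicates, and all 39 pairs differed by more than counting noise (chi-square over degrees of freedom at least 3.94). Symbols were matched for 57532 identifiers from the current table and 492 from GENCODE 29, which gave gene positions (GRCh38), and 278 stayed unnamed. Promoter windows are from RefSeq.

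The genes and lists were chosen with earlier results of these data known. The average line difference was given for each of the 8 tested genes, and SRXN1 was not tested. For the drug comparisons, values among these 8 were given only for GSTP1, TXNRD1, HMOX1 and NQO1. Of each further list, at most 4 called genes with the largest changes were named for the main comparisons and at most 2 otherwise, if the higher group reached 5 CPM, and NFE2L2, KEAP1 and BACH1 always. Leaving out libraries, other scalings and filters, DESeq2, fits of only the groups compared and a replicate block were the alternatives. The pipeline was tested on simulated data.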

Additional observations from a re-analysis of the deposited data

Results flagged for a closer look

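The levels of the 8 tested genes in groups of 4 libraries, 40 sets of 4 values, were searched for a single library far from the others, which chance gives in about 1 of 20 sets. In parental decitabine library 3, GCLM stood at 59.28 CPM, where the other libraries of the group had 37.2 to 39.7 CPM. SLC7A11 stood at 72.61 CPM in parental combination library 1, where the others had 38.3 to 39.7 CPM. In resistant doxorubicin library 4, SLC7A11 stood at 72.41 CPM, below the 92.9 to 95.9 CPM of the others. The decitabine effect on GSTP1, averaged over the presence of doxorubicin, was 0.74 larger on the log2 scale in resistant than in parental tumours by a test of the difference itself (adjusted p = 0.0169, edgeR), in a contrast chosen after seeing the data.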

How the results depend on the processing

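Over all comparisons and alternatives, 4261 values of the 8 genes stayed on their side of the threshold, 92 dropped below it and 59 passed it. Changes of sign by less than 1 SE in uncalled values were counted among the 4261. Another 12 values, uncalled in both fits, changed sign by at least 1 SE. Of values called in either fit, 0 changed sign. The numbers below are counts of called genes among the 8, and causes of the changes were not tested unless the setting itself removed or added genes or libraries. Without the filter on low counts, more genes were called: 5 between the lines under vehicle, 4 under the combination, 2 for parental decitabine, 2 for parental doxorubicin, 2 each for the parental combination against either drug alone, 1 for resistant decitabine, 3 and 2 for decitabine and doxorubicin averaged over the lines, and 1 each for the decitabine, doxorubicin and combination effects between the lines. In the averages over the other drug it gave 2 for parental decitabine, 2 for parental doxorubicin, and 4 and 2 for the decitabine and doxorubicin effects between the lines. DESeq2 called 1 for resistant decitabine, 1 for parental doxorubicin and 1 for the combination effect between the lines, and resistant decitabine also had 1 with DESeq2 size factors and 1 with upper quartile scaling. Fits of only the groups compared gave 2 between the lines under the combination and 2 each for the averaged parental decitabine and doxorubicin contrasts. The CPM filter gave 0 for decitabine averaged over the lines. Leaving out parental vehicle library 3 and resistant decitabine library 2 gave 2 there and 0 for the averaged decitabine effect between the lines.

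Leaving out 1 library at a time moved the count between 2 and 4 for the lines under vehicle, between 2 and 3 under doxorubicin, between 5 and 7 for their average, between 2 and 3 under decitabine, between 0 and 2 for the lines under the combination and for decitabine averaged over the lines, between 1 and 2 for the averaged decitabine effect between the lines, and between 0 and 1 for parental doxorubicin, the resistant combination against doxorubicin, the parental combination against decitabine, doxorubicin averaged over the lines and the averaged parental decitabine contrast.

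With the replicate block, 2 genes were called between the lines under decitabine, since HMOX1 (adjusted p = 0.0535) and SLC7A11 (0.0654) missed the threshold, as did NQO1 on average (0.0596) and GCLM under doxorubicin (0.073). The replicate numbers gave no clear sign of pairing. The median correlation was 0.0175 over 94 same-numbered pairs and 0.000788 over 273 pairs with different numbers. Of the same-numbered pairs, 32 had a correlation over 0.1, and 8 of 29 libraries correlated best with their own number. The values of these 2 counts without pairing were not computed, so the counts alone do not decide it.

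Counts over all tested genes moved more. Parental decitabine called 225 genes, but 499 with DESeq2, 942 without the filter and 2 in a fit of its groups only. Resistant decitabine called 450, but 1089 and 104 in the last 2 of these settings. The averaged decitabine effect between the lines called 448, 1255 with DESeq2 and 24 without the 2 libraries named above. Scaling shifted the median log2 difference of all genes by less than 0.1. Depth limits OSGIN1 (706 counts in all) most, and intervals cover the spread between libraries only.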
